A study of Mus musculus with 18 samples.

Results

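The genes described here were the 3 SoxF transcription factors, Sox7, Sox17 and Sox18, and 7 genes of the Notch pathway: the receptors Notch1 and Notch4, the ligands Dll4 and Jag1, and the transcriptional repressors Hey1, Hey2 and Hes1. They were taken by name, with earlier results of these data known. All 10 were found among 20115 gene names in the table of embryonic stem (ES) cell differentiation stages, and all 10 among 20430 names in the table of reprogrammed fibroblasts.

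Expression was measured by RNA sequencing in mouse cells of strain 129. A Brachyury-GFP reporter ES line gave ESC (undifferentiated cells), MES (mesoderm sorted as Bry.GFP+, FLK1-), HB (hemangioblast, Bry.GFP+ and FLK1+), HP (hematopoietic progenitors, CD41+) and MAC (CD11b+ macrophages), with 2 samples per stage. The stage table also had a column for HE, the hemogenic endothelium (Tie2+, cKit+, CD41-), for which there was no sample among the 18 of this series. By the series' design text the HE data had been deposited earlier in a separate series, so that differences between HE and the other stages set data of separate deposits side by side. That column is used as the authors' value, and results that rest on it are also given without it. For each stage the replicates had been combined into 1 FPKM value (fragments per kilobase of transcript, scaled to the number of mapped fragments), so no replicate error and no test could be had. The fibroblasts were mouse embryonic fibroblasts (MEFs) from embryonic day 14.5, wild type or carrying the iTal1-2A-GFP transgene (rtTA and TRE-TAL1 cassettes, induced with doxycycline), and the labels do not say which of these each library came from. Untreated cells (uFIB) were compared with cells given Scl and Lmo2 (SL), Scl, Fli1, Gata2 and Lmo2 (SFGL), or Fli1, Gata2 and Lmo2 (FGL), at day 12 and day 21. There was 1 library per condition and day, so these differences have no replicate check. Scl is another name of Tal1.

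The SoxF factors are closely related DNA-binding proteins of the SRY-box family that act in the developing vascular and hemogenic endothelium. Notch receptors are membrane proteins that are cleaved when a Delta-like or Jagged ligand on a neighbouring cell binds them. The freed intracellular part joins the DNA-binding protein RBPJ and Mastermind-like coactivators, and Hes and Hey genes are among its best known targets. The pathway is known for its roles in arterial identity and in the formation of blood stem cells from endothelium.

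Of the 10 genes, 7 had their highest value in HE: Sox7, Sox17, Sox18, Notch1, Notch4, Dll4 and Hey2. Of all 12141 genes that reached at least 1 FPKM in some stage, 10.5% were highest in HE. Hey1 and Hes1 were highest in HB, as were 14.6% of these genes, and Jag1 in MES, as were 5.28%. Sox17, Sox18, Notch4 and Dll4 reached 1 FPKM in HE alone, so they passed that limit only through the HE column. The plot of values by stage shows the shared maximum in HE and the 3 genes that departed from it. In these bulk populations a lower value can mean fewer expressing cells or less RNA per cell, and these cannot be told apart.

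**Figure D1:**
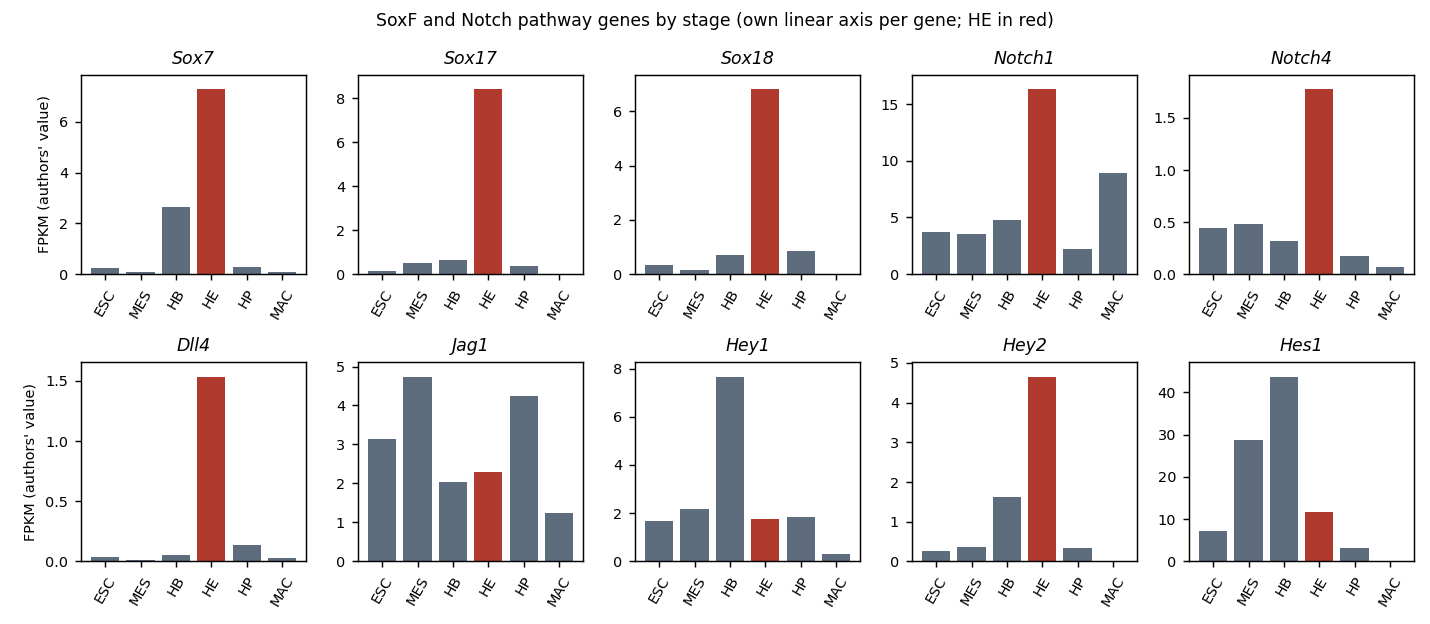
FPKM of each gene (linear vertical axis from 0, own scale per gene) in the 6 stages (horizontal axis), 1 authors' value per bar with no error; HE is in red. The red bar is the tallest in 7 of the 10 panels, Hey1 and Hes1 are tallest in HB, and Jag1 in MES.

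Each gene had 1 transcription start row in the stage table, and no other row overlapped it. On mm10, Sox7 lies on chromosome 14 at 63943706 to 63950732, Sox17 on chromosome 1 at 4490928 to 4496413 and Sox18 on chromosome 2 at 181669837 to 181671640. The receptor genes lie on chromosome 2 at 26457902 to 26503822 (Notch1) and chromosome 17 at 34564295 to 34588543 (Notch4). The ligand genes share chromosome 2, Dll4 at 119325784 to 119335666 and Jag1 at 137081451 to 137116520. Hey1 lies on chromosome 3 at 8663359 to 8667038, Hey2 on chromosome 10 at 30832359 to 30842783 and Hes1 on chromosome 16 at 30065357 to 30067796.

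RefSeq (GRCm38.p6) gave promoters for 5 of the 10: Notch1, Notch4, Dll4, Jag1 and Hey2. The 250 bases before the start of 4 of them are shown because Notch4, Dll4 and Hey2 rose together in HE and Jag1 did not. They are written 5′ to 3′ on the gene's own strand. The windows are chr17:34564045-34564294 (+ strand) for Notch4, chr2:119325534-119325783 (+ strand) for Dll4, chr10:30842784-30843033 (- strand) for Hey2 and chr2:137116521-137116770 (- strand) for Jag1. Capitals mark a match to a searched motif, on either strand.
Notch4: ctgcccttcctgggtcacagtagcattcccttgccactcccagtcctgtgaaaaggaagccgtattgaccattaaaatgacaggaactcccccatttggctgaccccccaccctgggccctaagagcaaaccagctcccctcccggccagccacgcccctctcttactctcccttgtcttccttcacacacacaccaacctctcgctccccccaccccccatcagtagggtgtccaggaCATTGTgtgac
Dll4: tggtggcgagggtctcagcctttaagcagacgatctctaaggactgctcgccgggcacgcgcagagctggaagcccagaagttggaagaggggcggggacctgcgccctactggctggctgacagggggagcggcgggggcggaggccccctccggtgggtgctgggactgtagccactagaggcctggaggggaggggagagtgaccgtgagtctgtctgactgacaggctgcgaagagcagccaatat
Hey2: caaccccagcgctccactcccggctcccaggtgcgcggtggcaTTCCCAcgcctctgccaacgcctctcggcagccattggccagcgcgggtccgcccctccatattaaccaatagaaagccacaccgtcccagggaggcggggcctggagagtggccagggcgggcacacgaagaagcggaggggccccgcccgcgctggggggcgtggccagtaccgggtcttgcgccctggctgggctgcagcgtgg
Jag1: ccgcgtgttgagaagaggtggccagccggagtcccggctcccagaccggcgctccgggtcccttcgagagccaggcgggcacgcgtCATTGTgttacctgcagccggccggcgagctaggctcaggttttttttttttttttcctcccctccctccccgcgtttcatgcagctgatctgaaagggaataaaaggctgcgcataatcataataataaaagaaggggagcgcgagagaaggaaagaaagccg
In all, 4 motifs were searched on both strands: TGGGAA (the core of an RBPJ site), ACAATG (a SOX site), CCGGAA (an ETS site, which shares its last letters with the RBPJ core) and CACGTG (an E-box of the kind bound by Hey proteins, the same on both strands). The RBPJ core stood in the Hey2 window, on the opposite strand at 207 to 202 bases before the start, as it did somewhere in 21.6% of 32851 promoter windows of this length. The SOX letters stood in the Notch4 window at 11 to 6 bases before the start and in the Jag1 window at 164 to 159, both on the opposite strand, against 10.7% of windows. None of the 4 motifs was found in the windows of Dll4 and Notch1. The ETS letters stood in 12.0% and the E-box in 6.02% of windows. The SOX letters thus stood in a gene that rose in HE (Notch4) and in the gene that did not (Jag1), and the RBPJ core in Hey2 alone.

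The 3 SoxF factors reached similar levels in HE from different starting points. Sox7 was low in ESC (0.229 FPKM) and MES (0.0893), reached 2.65 in HB and 7.28 in HE, and returned to 0.295 in HP and 0.0951 in MAC. In stage order from ESC to MAC, Sox17, also known as an endoderm factor, read 0.141, 0.490, 0.650, 8.41, 0.385 and 0 FPKM. Sox18, a regulator of vascular and lymphatic development, read 0.318, 0.164, 0.702, 6.81, 0.852 and 0 FPKM. In HB, before HE, Sox7 stood at 2.65 FPKM while Sox17 and Sox18 were both below 1 FPKM. The HE value was 2.75 times the next highest stage for Sox7 and 12.9 times for Sox17, both against HB, and 7.99 times for Sox18, against HP. In MAC the SoxF genes were at or close to 0. The fold between HP and MAC is not given for Sox17 and Sox18, which were listed at 0 in MAC.

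Differences between successive stages were taken on the log2(FPKM + 1) scale, which understates the change of low genes, and a gene is said to rise or fall where it differed by at least 2-fold on this scale. From MES to HB, Sox7 rose by 1.74 and Hey1 by 1.46, and none of the 10 fell, where 2.13% of the genes with at least 1 FPKM in some stage rose and 2.78% fell. From HB to HE, 7 of the 10 rose and 2 fell, against 7.42% and 4.14% of genes. The largest differences were 2.51 for Sox17 and 2.20 for Sox18. Sox7 rose by 1.18 in the same step. The median over the 10 genes was 1.14, beside -0.01 over all these genes. From HE to HP, 8 fell and none rose, where 8.2% of genes fell and 4.39% rose. The median over the 10 was -1.84, beside -0.06 over all. These counts describe 1 value per stage and were not tested, and the steps into and out of HE share the HE column. Sox17, Sox18, Notch4 and Dll4 passed the limit of 1 FPKM through that column alone.

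**Figure D2:**
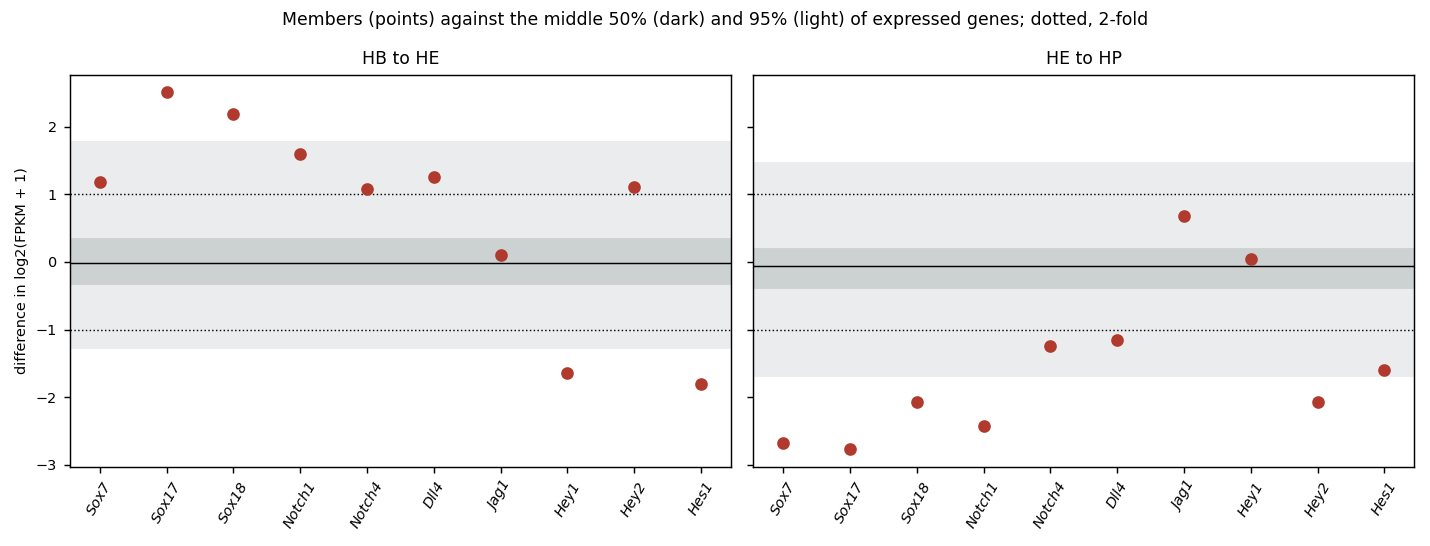
Difference in log2(FPKM + 1) of the 10 genes (red points) from HB to HE and from HE to HP, 1 value each with no error. Grey bands hold the middle 50% (dark) and 95% (light) of the 12141 genes with at least 1 FPKM in some stage, the line is their median and dotted lines mark 2-fold; 7 points lie above the upper dotted line on the left and 8 below the lower one on the right.

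Without HE, 5 genes were highest in HB (Sox7, Sox17, Hey1, Hey2 and Hes1). Sox18 and Dll4 were highest in HP, Notch1 in MAC, and Notch4 and Jag1 in MES. The share of all genes highest in each stage was not computed without HE. Sox17, Sox18, Notch4 and Dll4 were below 1 FPKM in every stage but HE, so their highest stage here rests on low values. Directly from HB to HP, Sox7 fell by 1.49, Hey1 fell by 1.60 and Hes1 fell by 3.41, and no member rose. Of all genes, 7.63% fell and 7.69% rose in that comparison. Sox17 (-0.25) and Sox18 (0.12) stood at nearly the same level in HB and HP, on either side of the HE value.

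The markers of the named cells were checked for 4 stages. All 4 pluripotency markers were highest in ESC and all 5 macrophage markers found were highest in MAC. Of 8 blood markers 5 were highest in HP, with a sum of 186 FPKM there and 225 in MAC. All 12 endothelial markers were highest in HE, with a summed level of 574 FPKM, beside 15.7 to 128 in the other stages. Tek (110 FPKM) and Kdr (105 FPKM) led this list, followed by Egfl7 (82.2 FPKM). Tek encodes Tie2 and Kdr encodes FLK1, so both were used in sorting. Markers of other cells were also high in HE. The 5 smooth muscle markers summed to 542 FPKM, beside 1.84 to 154 elsewhere, with Acta2 at 339 and Tagln at 194 FPKM, whereas Myh11 read 0.488. The 7 fibroblast markers found summed to 107 FPKM, beside 2.27 to 37.9 elsewhere, with Col1a2 at 66.0, Col1a1 at 22.1 and Col3a1 at 13.7 FPKM, whereas Dcn read 0.338. The part of these cells in the HE values was not tested. The 12 endoderm markers, which bear on Sox17, summed to 18.4 FPKM in HE and 45.4 in HB. In HE, Epcam read 0.513 FPKM, Cldn6 0.302 and Foxa2 0.285 (0.194 in HB), the other 5 detected members apart from the GATA factors were below 0.03, and Afp and Cer1 were at 0. Most of the HE sum was Gata4 (11.1 FPKM) and Gata6 (6.07 FPKM), which cardiac and vascular mesoderm also express.

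The receptors differed in level and in course. Notch1 read 3.73, 3.57, 4.74, 16.3, 2.23 and 8.90 FPKM from ESC to MAC in stage order. It was the highest of the 10 genes in HE, rose by 1.59 on entering it, fell by 2.42 on leaving it and rose again by 1.62 from HP to MAC. MAC was its next highest stage, and the HE value was 1.83 times that of MAC. Notch4, the receptor found mainly in endothelium, read 0.441, 0.481, 0.317, 1.78, 0.172 and 0.0639 FPKM. It was the only receptor above its other stages by more than 3 times, with 1.78 FPKM in HE against 0.481 in MES. Notch2 and Notch3 had their maxima in HB instead, at 13.3 and 12.3 FPKM. Of the 4 receptors, 2 (Notch1 and Notch4) rose from HB to HE and 3 (Notch1, Notch3 and Notch4) fell from HE to HP. Of all genes, 7.42% rose from HB to HE and 8.2% fell from HE to HP.

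Among the ligands, Dll4, known for its role in arterial endothelium, was the gene with the widest margin in HE after Sox17. It read 0.0380, 0.00973, 0.0564, 1.54, 0.136 and 0.0276 FPKM from ESC to MAC. Its level in HE was 11.3 times that of the next stage, HP, but remained below that of Jag1. Jag1 read 3.15, 4.74, 2.05, 2.29, 4.26 and 1.24 FPKM in the same order, and neither rose nor fell in any step before HP to MAC, where it fell by 1.23. Among 7 ligands and ligand-like genes, Dll4 and Dlk1 rose from HB to HE and Dll3 fell. Of all genes, 7.42% rose and 4.14% fell in that step. Dlk1, a noncanonical ligand, went from 0.413 to 2.82 FPKM, and Dll3 from 3.01 to 0.00908. The highest level of any ligand was that of Jag2 in ESC (6.50 FPKM), and Jag2 read 1.51 in HE.

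The targets split. Hey2 read 0.273, 0.364, 1.63, 4.66, 0.348 and 0 FPKM from ESC to MAC, so that it was already present in HB and rose by 1.11 in HE. Its relative Hey1 read 1.69, 2.16, 7.66, 1.76, 1.86 and 0.325 FPKM, with its maximum 1 stage earlier. Hes1 read 7.08, 28.7, 43.7, 11.8, 3.20 and 0.153 FPKM, the highest level of any of the 10 genes in HB. From HB to HE, Hey1 fell by 1.65 and Hes1 fell by 1.81, in the step in which Hey2, Dll4 and both receptors rose. Hes1 had risen by 1.88 from ESC to MES, where it was the only one of the 10 to rise and none fell, against 6.07% and 6.4% of genes. It fell by 1.61 into HP and fell by 1.86 into MAC. From HP to MAC, Notch1 rose and 3 genes (Jag1, Hey1 and Hes1) fell, against 29.8% of genes that rose and 12.4% that fell. After scaling the columns to the same upper quartile these shares became 17.3% and 21.9%, with the median of all genes at -0.18 in place of 0.29, and the 4 genes kept their calls. Nrarp, a feedback inhibitor of Notch signalling, had a course like that of Hes1 up to HB, with 1.30, 4.92, 8.37, 5.68, 2.48 and 0.0223 FPKM.

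The rest of the pathway is given from lists of its parts. Of 20 genes that process ligands and receptors, 4 rose from HB to HE (Adam10, Psen2, Furin and Numbl) and none fell, where 7.42% of all genes rose and 4.14% fell. Furin, the protease that cuts the receptor precursor, went from 3.79 to 14.0 FPKM, and Numbl, a relative of the Notch inhibitor Numb, from 1.65 to 6.69. Those 2 fell again in HP, and they were the only genes of this list with their maximum in HE. Furin was nearly as high in MAC (12.8 FPKM) and Numbl in ESC (6.44 FPKM). The highest values of the list were in MAC, with Psen2, a presenilin of the γ-secretase complex, at 143 FPKM and Adam17 at 54.1 FPKM. Mib1, the ubiquitin ligase that makes ligands active, read 38.6 FPKM in MAC, 37.3 in HE and already 34.3 in HB. From HP to MAC, 12 of the 20 rose and 1 fell, which became 5 and 1 once the columns had equal upper quartiles. Of all genes, 29.8% rose as deposited and 17.3% after that scaling. None of the 11 genes of the nuclear complex rose or fell from HB to HE, where Rbpj stood at 2.61 and 2.53 FPKM. Maml1 (4.73 FPKM) and Maml3 (3.62 FPKM), both coactivators, had their maxima in HE, next to 3.89 in HB for Maml1 and 3.23 in HP for Maml3. The highest levels of this list were those of Snw1, Kat2a and Ncor1, at 51.3, 27.3 and 23.7 FPKM in MAC, ESC and HP.

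**Figure D3:**
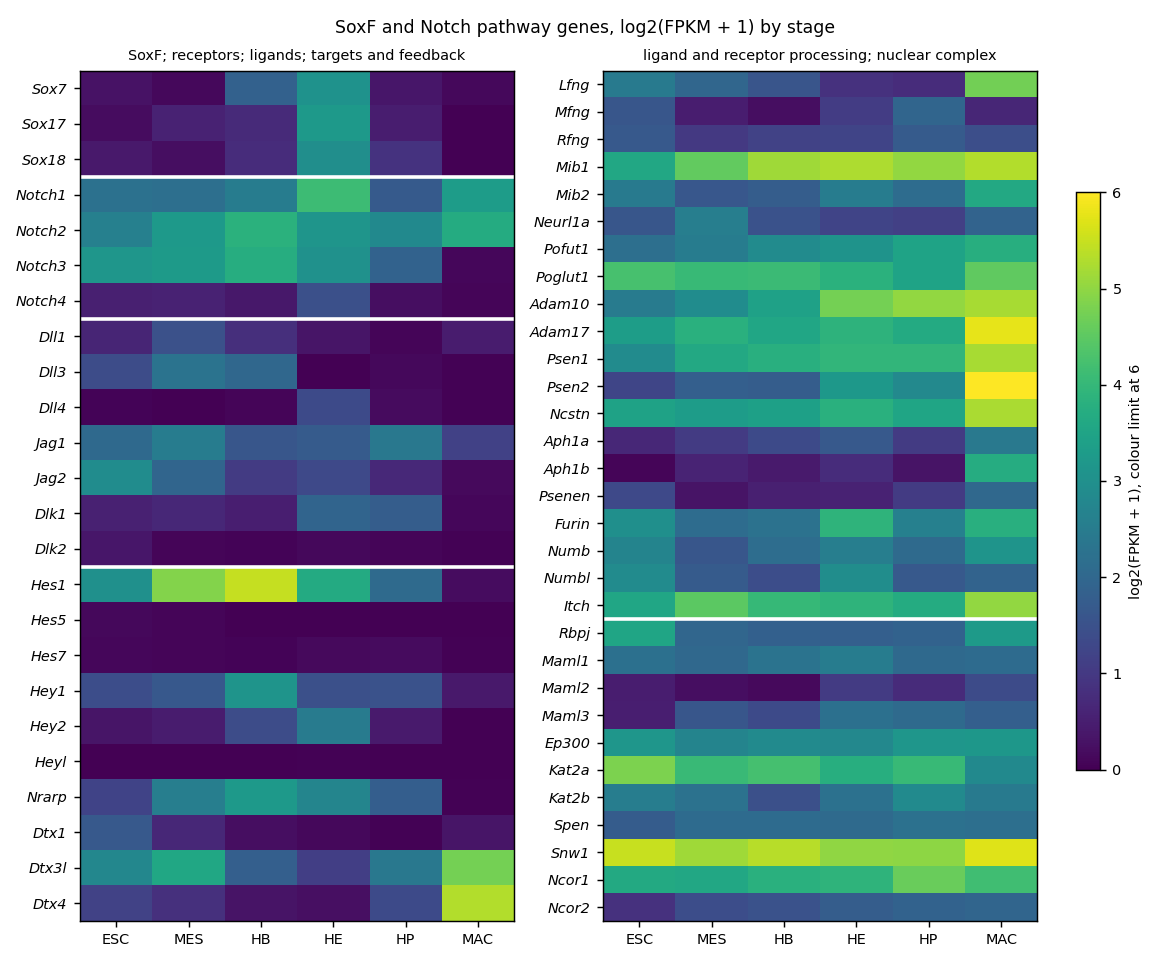
Level of the SoxF genes and of the listed Notch pathway genes (rows) in the 6 stages (columns), as log2(FPKM + 1) by colour from 0 to 6, 1 authors' value per cell; white lines divide the lists. The SoxF genes, Notch1, Notch4, Dll4 and Hey2 are brightest in HE, Hes1, Hey1 and Nrarp in HB, and most processing genes in MAC.

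Of 16 other Sox genes, 2 had their maximum in HE (Sox5 and Sox6) and 9 had it in ESC. Only 9 of the 16 reached 1 FPKM in some stage, Sox6 among them but not Sox5, which read 0.324 FPKM in HE. Of all genes that reached 1 FPKM, 10.5% were highest in HE. Sox2, a pluripotency factor, went from 69.4 FPKM in ESC to 0.438 in HE. Sox6 rose from 0.173 to 2.69 FPKM between HB and HE and stayed at 2.43 in HP, unlike the SoxF genes. Sox4 (18.4 FPKM in ESC) and Sox11 (12.8 FPKM in HB) were the next most abundant, and both exceeded the SoxF factors in HE, at 11.9 and 11.6 FPKM. Sox9 was highest in HB at 1.22 FPKM and fell to 0.0612 in HE.

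Arterial and venous markers, which bear on the known vascular roles of these genes, both included genes that rose in HE. Of 7 arterial markers with at least 1 FPKM in some stage, Gja4 and Acvrl1 rose from HB to HE and Cxcr4 fell, in a step in which 7.42% of all genes rose and 4.14% fell. Gja4, a gap junction protein of arteries, went from 0.730 to 24.7 FPKM, and Acvrl1, a receptor kinase, from 0.812 to 12.3. Cxcr4, a chemokine receptor, went from 29.3 to 0.632 FPKM, in the same direction as Hey1 and Hes1. Efnb2, the arterial ephrin ligand, was highest in HB at 35.5 FPKM and read 21.8 in HE. Of 5 venous and lymphatic markers with at least 1 FPKM, Ephb4, Flt4 and Lyve1 rose in the same step. Ephb4, the venous partner of Efnb2, went from 16.1 to 36.7 FPKM and Flt4 from 1.54 to 5.39.

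Across the 6 stages the courses of the genes on the log2(FPKM + 1) scale are described by Pearson's r between pairs. Because all pairs use the same 6 columns and several peak in HE, r largely reflects that column, and no p is given. Sox17 and Sox18 had r = 0.97, and each had r = 0.90 with Sox7. Dll4 had r = 0.97 with both Sox17 and Sox18. Sox7 was most like Hey2, with r = 0.99. Notch1 was less like the SoxF genes, with r of 0.63 to 0.71. Hey1 and Hes1 had r = 0.86 with each other, and r of 0.12 to 0.42 with the SoxF genes. Jag1 had r of -0.31 to -0.07 with them.

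Among 7179 genes that reached at least 10 FPKM in some stage, the 3 most like each member by the same measure were named by rule. For Sox7 they were Pcdh12 (r = 0.99), Myzap and Abl1, and Pcdh12, an endothelial protocadherin, also ranked highest for Hey2 (r = 0.99), followed by Hoxb2 and Arl2bp. For Sox17 they were Tmem2 (r = 0.99), Ptprm and Cd81, and for Sox18 Tdo2 (r = 0.99), Cd81 and Ptprb. Ptprm and Ptprb are receptor phosphatases found in endothelium. For Dll4 they were Tmem204 (r = 0.998), Nos3, the endothelial nitric oxide synthase (r = 0.995), and Taok2. Nos3 read 13.1 FPKM in HE and at most 0.556 in the other stages. For Notch1 they were Lats2 (r = 0.98), Marcks and Mtch1, and for Notch4 Gpm6a (r = 0.98), Tuba1a and Dysf. Hey1 was most like Ddx52 (r = 0.99), Nom1 and Nip7, and Hes1 most like Lrfn4 (r = 0.99), Tmed1 and Zfp105. Jag1 had the weakest neighbour, Serinc5 (r = 0.90), before Rcc2 and Rps16. With HE left out, r for these 30 pairs ran from 0.61 (Notch4 and Dysf) to 0.99 (Hes1 and Lrfn4). Several of the named genes, Pcdh12, Ptprm, Ptprb and Nos3 among them, reached 10 FPKM in HE alone, so the limit let them in through HE.

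In the MEF libraries 6 of the 10 genes stayed below 1 FPKM. Sox7, Notch1, Jag1 and Hes1 reached 1 FPKM in at least 1 of the 8 libraries. The other 6 were highest at 0.361 (Sox17), 0.395 (Sox18), 0.267 (Notch4), 0.0650 (Dll4), 0.651 (Hey1) and 0.320 FPKM (Hey2). Low FPKM values fell on steps that whole reads leave, from which the depth was estimated at 1.07e+07 to 2.81e+07 reads per library. This estimate exceeds the numbers of aligned reads that the study lists, for a reason that was not tested. The read numbers below rest on these steps and would be smaller at a lower depth. The limits given as FPKM for a count of 0 would then be higher, and all of them cover counting error only. The delivered factors were checked by their level. Tal1 read 62.0 and 347 FPKM in SL at the 2 days, 58.0 and 119 in SFGL, and 0.0414 and 0.415 in uFIB. In the library labelled FGL at day 12 it read 7.04 FPKM although Scl was not among its factors, and 0.0705 at day 21. Lmo2 read 36.2 to 150 FPKM in the 6 reprogrammed libraries, and Gata2 21.9 to 132, against 0.499 and 2.28 for Lmo2 and 1.80 and 2.13 for Gata2 in uFIB. Fli1 read 46.7 and 34.4 FPKM in SL, where it was not delivered, 41.2 and 27.8 in SFGL, and 3.43 and 3.02 in uFIB. In the libraries labelled FGL it read 8.29 at day 12 and 3.35 at day 21, so that the FGL library of day 21 showed no Fli1 above the untreated level. Gata2, also not delivered in SL, read 68.8 and 62.6 FPKM there.

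Among the SoxF genes, only Sox7 could pass 2-fold on the log2(FPKM + 1) scale in MEFs, as Sox17 and Sox18 stayed below 1 FPKM. At day 12 Sox7 was listed at 0 in uFIB, against 1.41 FPKM in the SL library, 0.330 with SFGL and 0.0479 with FGL. At day 21 it read 0.0499, 2.61, 1.40 and 0.0304 FPKM in the same order. By this estimate about 123 reads in SL and 20.9 in SFGL lay behind the values at day 12, and 88.1 and 60.4 at day 21, whereas uFIB and FGL had at most about 4 reads in any library. A count of 0 allows up to 3 reads, or 0.0538 FPKM, for Sox7 in uFIB at day 12. Both SL libraries and both SFGL libraries thus stood above all 4 uFIB and FGL libraries. On the log2(FPKM + 1) scale Sox7 was 1.27 higher in SL than in uFIB at day 12 and 1.78 higher at day 21. In SFGL the difference was 0.41 at day 12 and 1.19 at day 21, so that it passed 2-fold only at day 21. Between SFGL and SL, Sox7 differed by -0.86 and -0.59 (SFGL minus SL), which did not reach 2-fold at either day.

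Sox17 and Sox18 were listed at 0 in uFIB at both days. In SL and SFGL, Sox17 read 0.0597 and 0.0493 FPKM at day 12 and 0.215 and 0.361 at day 21, from about 3 to 15.3 reads. A count of 0 in uFIB allows 0.0548 and 0.0376 FPKM for Sox17, so that the SL and SFGL values were above it only slightly or not at all at day 12. Sox18 read 0.395 and 0.272 FPKM at day 12 and 0.382 and 0.249 at day 21, from 4.92 to 15.8 reads, where 0 reads in uFIB allow 0.117 and 0.0805. FGL had no Sox17 and, at day 21, about 1 read of Sox18 (0.0658 FPKM). With a pseudocount of 0.1, Sox18 passed 2-fold in SL and SFGL at both days, by 1.80 to 2.31. Sox17 passed it at day 21, by 1.66 in SL and 2.20 in SFGL.

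The ligand Jag1 and the target Hes1 were lower in SL and SFGL. At day 12 Jag1 read 14.3 FPKM in untreated cells, 3.87 in SL, 3.67 in SFGL and 16.3 in FGL, and at day 21 it read 16.3, 4.40, 2.50 and 17.5. Hes1 read 20.2, 6.14, 5.76 and 20.9 FPKM at day 12 and 16.5, 6.50, 8.43 and 18.0 at day 21. For both genes the 4 SL and SFGL libraries lay below all 4 uFIB and FGL libraries, the library labelled FGL at day 12 included. Jag1 differed from uFIB by -1.65 and -1.68 in SL and by -1.71 and -2.30 in SFGL at the 2 days. Hes1 differed by -1.57 and -1.22 in SL and by -1.65 and -0.89 in SFGL. Notch1 read 8.31, 8.39, 6.44 and 7.99 FPKM at day 12 and 12.8, 7.93, 5.30 and 12.7 at day 21, so that it differed from uFIB by -1.13 in SFGL at day 21. Against the mean of both uFIB libraries, that difference was -0.87 and no longer 2-fold, and the one for Hes1 in SFGL at day 21 was -1.03 and passed. Notch1 itself was 0.56 higher in uFIB at day 21 than at day 12.

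**Figure D4:**
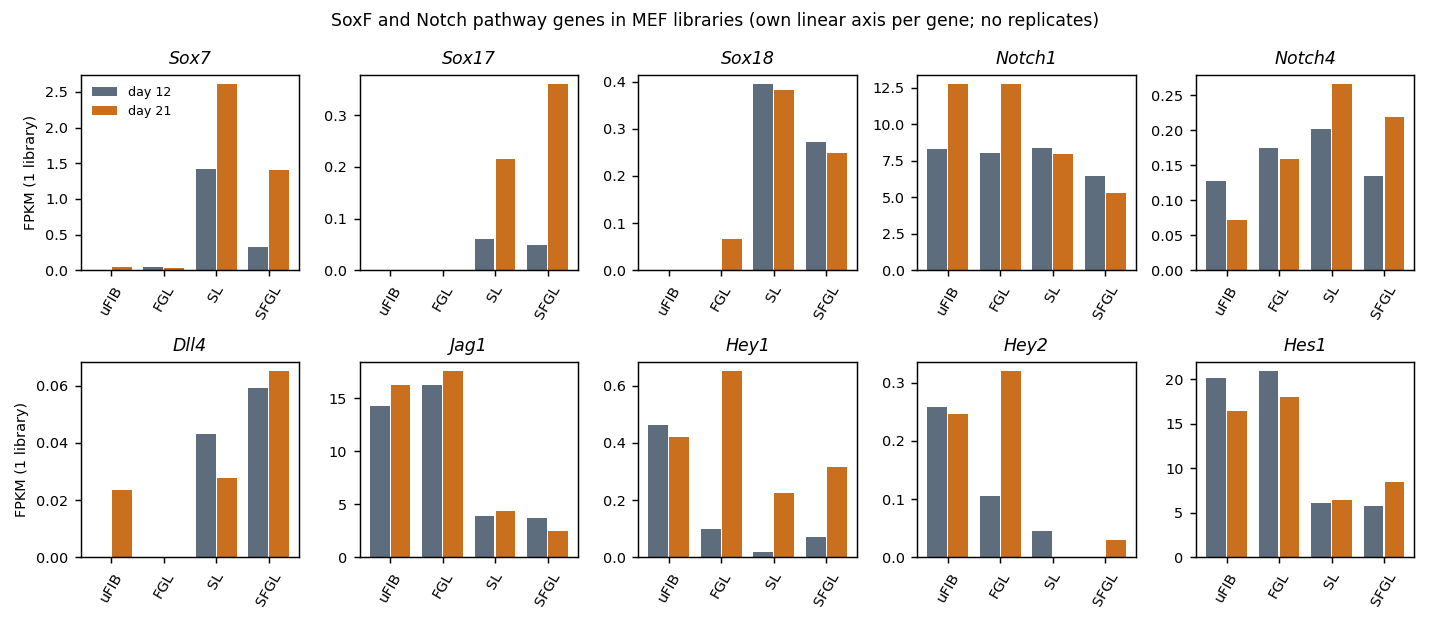
FPKM of each gene (linear vertical axis from 0, own scale per gene) in the 8 MEF libraries, by condition (horizontal axis) and day (grey, day 12; orange, day 21), 1 library per bar with no error. Sox7 and Sox18 are taller in SL and SFGL than in uFIB and FGL, and Jag1 and Hes1 are shorter, at both days.

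Only the 4 members with at least 1 FPKM in some MEF library (Sox7, Notch1, Jag1 and Hes1) could pass 2-fold on the log2(FPKM + 1) scale. Counted against uFIB, 1 of them rose (Sox7) and 2 fell (Jag1 and Hes1) in SL at both days. In SFGL, 2 fell and none rose at day 12 (Jag1 and Hes1), and Sox7 rose while Notch1 and Jag1 fell at day 21. Of the 12923 genes with at least 1 FPKM in some MEF library, 13.7% rose and 13.2% fell in SL at day 12 and 11.5% and 12.1% at day 21. In SFGL these shares were 14.2% and 16.5% at day 12 and 13.5% and 15.6% at day 21. None of these 4 members differed by 2-fold in the libraries labelled FGL. There, 2.8% of genes rose and 0.279% fell at day 12, and 0.433% and 0.34% at day 21. None of the 4 differed between SFGL and SL. Of all genes, 0.217% were higher and 0.557% lower in SFGL at day 12, and 0.727% and 0.402% at day 21. Between the uFIB libraries, day 21 against day 12, none of the 4 differed either, and 1.7% of genes rose and 1.17% fell. SL, SFGL and FGL of a day share their uFIB library, so their differences are not independent.

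A fit over all 8 libraries was added after the data had been seen, with condition and day as terms, so that the 2 days stood in for replicates and any change of an effect between days counted as error. It left 3 residual degrees of freedom and tested the 4 members with at least 1 FPKM among 12923 genes with limma. Of these, Sox7 passed that limit only through SL at both days and SFGL at day 21. Its entry thus rested on the conditions in which it was then tested as higher. In SL, Sox7 was higher by 1.53 ± 0.262 (SE) with a limma adjusted p of 0.0063. Jag1 differed by -1.66 ± 0.174 (adjusted p = 0.0015) and Hes1 by -1.39 ± 0.201 (adjusted p = 0.0037), and Notch1 by -0.31 ± 0.245, which did not pass (adjusted p = 0.33). In SFGL, Sox7 was higher by 0.80 ± 0.262 and Notch1 differed by -0.73 ± 0.245, with limma adjusted p of 0.043 and 0.048, close to the threshold of 0.05. Jag1 differed by -2.00 ± 0.174 (adjusted p = 0.00069) and Hes1 by -1.27 ± 0.201 (adjusted p = 0.0038). No member passed in FGL, where the smallest unadjusted limma p among the 4 was 0.45. At this threshold 25% of genes rose and 26.8% fell in SL, 27.3% and 30.7% in SFGL, and 0.0155% and 0% in FGL, where 182 genes rose and 298 fell at an unadjusted p under 0.05. The calls of the members were the same without the FGL libraries.

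Hey1, Hey2, Notch4 and Dll4 stayed at low values in MEFs. Hey1 read 0.464 and 0.420 FPKM in uFIB at the 2 days and 0.0175 to 0.317 in SL and SFGL. Hey2 read 0.258 and 0.246 in uFIB, from about 10.9 and 15.2 reads, and 0 to 0.0450 in SL and SFGL, at most about 3 reads. With a pseudocount of 0.1, Hey2 passed 2-fold in SL and SFGL at both days, by -1.30 to -1.84. Hey1 passed it at day 12 alone, in SL (-2.26), SFGL (-1.71) and FGL (-1.51). Notch4 read 0.0715 to 0.267 FPKM in the 8 libraries and Dll4 0 to 0.0650. Dll4, which in the stage table separated HE from the other stages, had at most about 4.29 reads in any MEF library.

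Other genes of the pathway also differed in SL and SFGL. Nrarp, highest in HB among the stages, was at 0.0230 and 0.0483 FPKM in untreated cells at the 2 days, against 4.30 and 4.36 in SL and 5.07 and 5.23 in SFGL. FGL read 0.330 and 0.118. Heyl, a Hey gene with almost no expression in any stage, read 1.55 and 4.73 FPKM in uFIB and 0 to 0.166 in SL and SFGL. Nrarp and Hes1, which had risen together up to HB, therefore lay on opposite sides of uFIB. Dlk1 was at 63.9 FPKM in uFIB at day 12, 11.8 in SL and 6.38 in SFGL, and at 11.3, 1.23 and 1.23 at day 21. Numbl fell in SL and SFGL at both days, from 36.2 and 30.2 FPKM to between 10.5 and 14.6. Rbpj, named after its values were seen, was 24.7 and 17.9 FPKM in uFIB and 33.5 to 45.7 in SL and SFGL, past 2-fold only in SFGL at day 21. Of the 6 listed Notch targets and feedback genes with at least 1 FPKM in some MEF library, 1 rose and 2 or 3 fell in each SL and SFGL library, where 11.5% to 14.2% of all genes rose and 12.1% to 16.5% fell.

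Markers of other cells moved with these differences. The 8 fibroblast markers summed to 7380 FPKM in uFIB at day 12 and 5756 at day 21, against 2551 and 1610 with SL and 2080 and 1281 with SFGL. All 8 fell in SL and SFGL at day 12 and 7 of 8 at day 21, and none of them was at 0. Of all genes, 11.5% to 14.2% rose and 12.1% to 16.5% fell in the SL and SFGL libraries. The 8 blood markers summed to 21.2 and 26.8 FPKM in uFIB and 369 to 582 in SL and SFGL. Of these, 7 or 8 rose in each. Of the 12 endothelial markers, 3 to 5 rose in each, among them Pecam1 (6.65 to 26.4 FPKM), which encodes the CD31 that the sorted starting cells lacked, and Egfl7 (17.8 to 24.0 FPKM), whereas Flt1 fell at day 12, from 40.6 FPKM in uFIB to 17.9 in SL and 11.6 in SFGL. Only 7 of the 12 reached 1 FPKM in any MEF library. Kdr stayed at 0.119 to 0.173, Tie1 at 0.115 to 0.235 and Tek at 0.285 to 1.29 FPKM in SL and SFGL. In FGL the fibroblast sums were 6320 and 5835 FPKM and the blood sums 74.8 and 26.0. In the library labelled FGL at day 12, 6 of the 8 blood markers rose, among them Myb (0.0848 FPKM in uFIB and 15.5 in FGL). Of all genes, 2.8% rose there. The part of these markers' cells in the Sox7, Jag1 and Hes1 values was not tested.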

How the data were processed

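Stage RNA was ribosome-depleted and made into libraries with the SOLiD Total RNA-Seq kit. The authors mapped reads to mm10 (colour-space reads with SHRiMP) and deposited Cufflinks FPKM values, per transcription start and stage with replicates combined, and per gene and MEF library. The submitters' processing notes name Cufflinks for MES, HB, HP and MAC, Bowtie and HOMER for ESC, and TopHat and Cufflinks for MEFs, without versions, so the ESC values may have been made differently. The stage values were not tied to a read depth here. The deposited values cannot be used in a count test, and with 1 value per stage, or per condition and day, no test was made within them. No column of values of single samples went unmapped.

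Starts of a gene name were summed. Genes with at least 1 FPKM in some column were the background, differences were taken on log2(FPKM + 1), and the call was 2-fold. MEF depth came from the whole-read steps in low values of genes with 1 transcript, with length reduced by 200 bases (78.5% to 83.3% of low values were within 0.1 of a whole read). Calls, depth and likeness were tested on simulated data. Genes were named by rule: the 10 members, for each list the 3 with the highest value and those past 2-fold with their maximum in HE or HB, and the 3 genes most like each member. Members and lists were chosen with earlier results of these data known. Alternatives were another pseudocount, scaling to the upper quartile, a 4-fold call and a minimum of 5 FPKM. Others were HE left out, other uFIB references and the highest start alone, which could not change a member with its 1 start row. The limma fit (3.58.1, R 4.3.3, intensity-trend variance, Benjamini-Hochberg adjustment) with condition and day as terms was added after seeing the data and tested on simulated data. Its p-values rest on how much the differences between conditions changed from 1 day to the other, with the variance moderated over genes. They do not measure the spread between replicates. Python 3.11.15, pandas 2.3.3 and NumPy 2.4.6 were used.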

Additional observations from a re-analysis of the deposited data

Results flagged for a closer look

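In 4 of the 30 pairs of differences between a reprogrammed library and uFIB (10 genes in SL, SFGL and FGL), the sign at day 12 was the opposite of that at day 21, with 1 library each. These reversals between days were not tested. Notch1 in SL differed from uFIB by 0.013 at day 12 and -0.62 at day 21 on the log2(FPKM + 1) scale. In FGL, Sox7 differed by 0.067 and -0.03, Hey1 by -0.42 and 0.22, and Hey2 by -0.19 and 0.08. All 8 values were below 2-fold, and the FGL values of Sox7 rest on about 3 and 1 reads.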

How the results depend on the processing

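Of 169 recomputed counts of members, 129 stayed within 1.5 times the reported one. Some of these could not move. The highest start alone changes nothing where each gene has 1 start row, and a stricter call cannot lower a count of 0. No paired analysis was possible because the deposited stage values combine the numbered replicates. For the same reason leaving out each replicate was not run for the stages, and each MEF condition and day has 1 library. In the MEFs, conditions were matched by day in a limma fit with day as a term, added after seeing the data. Over both days together it called 1 rising member (Sox7) in SFGL, both with and without FGL, where the count at day 12 was 0. That call was by adjusted p over both days and not by 2-fold at 1 day, so it is no check of the count at day 12. Sox7 also entered the fit only through SL at both days and SFGL at day 21.

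With HE left out, the 7 genes that rose from HB to HE became 0 and the 8 that fell from HE to HP became 3. In place of their rise from HB to HE, Sox7 (-1.49), Sox17 (-0.25), Notch1 (-0.83), Notch4 (-0.17) and Hey2 (-0.96) were lower in HP than in HB. In place of their fall from HE to HP, Sox18 (0.12) and Dll4 (0.11) were higher in HP than in HB. The setting itself takes away the column, so these values follow from its construction.

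A 4-fold call left 0 genes rising from ESC to MES, 0 from MES to HB, 2 from HB to HE (Sox17 and Sox18) and 0 from HP to MAC. It left 0 falling from HB to HE, 5 from HE to HP and 0 from HP to MAC. In MEFs it left 0 rising in SL at both days and in SFGL at day 21. It left 0 falling in SL at both days and in SFGL at day 12, and 1 (Jag1) in SFGL at day 21. A minimum of 5 FPKM left 1 rising from MES to HB, 4 from HB to HE, 5 falling from HE to HP, 0 falling from HP to MAC, and 0 rising in SL at both days and in SFGL at day 21.

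A pseudocount of 0.1 raised the count of rising genes to 2 from ESC to MES and to 4 from MES to HB. The falling genes became 1 from MES to HB and 7 from HP to MAC. In MEFs it gave 2 rising genes (Sox7 and Sox18) in SL and SFGL at day 12. At day 21 it gave 4 in SL (Sox7, Sox17, Sox18 and Notch4) and 3 in SFGL (Sox7, Sox17 and Sox18). It gave 4 falling genes (Jag1, Hey1, Hey2 and Hes1) in SL and SFGL at day 12 and 1 (Hey1) in FGL at day 12. A pseudocount of 0.001 with at least 1 FPKM, and scaling to the upper quartile, each added 1 falling gene from MES to HB (Jag1). With the libraries of the other day, SFGL had 1 rising gene (Sox7) in place of 0 at day 12 and 0 in place of 1 at day 21. After scaling, the genes highest in HE were again 7. Depth limits Dll4, Hey2, Sox17 and Sox18 in MEFs, each at or below 15.8 reads in any library.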
